A study of Rattus norvegicus with 45 samples.

Results

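To examine which transcripts differed between rats given the non-dopaminylatable histone and rats given the normal one in the absence of heroin, ventral tegmental area (VTA) RNA of 7 saline H3.3Q5A and 7 saline H3.3 WT rats was compared. All were wild-type male Sprague-Dawley rats that self-administered saline for 10 d, received a bilateral intra-VTA virus on day 11 and spent 30 d in abstinence. H3.3Q5A is histone H3.3 with alanine in place of glutamine 5, H3.3 WT is the unchanged histone, and every vector also carried a GFP tag, including the empty vector given to 7 further saline rats. The same vectors were given to rats that self-administered heroin, of which 8 H3.3Q5A and 7 H3.3 WT rats are used below. These 14 libraries were chosen by their saline and vector labels out of 45 in the series, and 1 further saline library was left out because its title names H3.3Q5A and its treatment names H3.3 WT. Of 32883 genes in the deposited table, 20219 were above its lowest value, which marks a count of 0, in 7 or more of the 14 libraries and were tested. The other 12664 included 7945 genes at that lowest value in all 14 libraries, and at the border of the rule 349 genes were above it in exactly 7 libraries and 394 in exactly 6.

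Dopaminylation is the covalent attachment of dopamine to a glutamine of histone H3, written by transglutaminase 2, and H3Q5dop is this mark at glutamine 5, next to the lysine 4 that carries methyl marks of active promoters. H3.3 is the H3 variant that is placed into chromatin outside of DNA replication, which makes it the main newly deposited H3 in neurons. The VTA holds the dopamine neurons that project to the striatum and cortex together with GABA and glutamate neurons and glia. All rats kept their own H3.3 genes, so the vector added protein to the histone pool that was already there. Punches of 2 mm guided by GFP were sequenced whole, so fewer cells of a type and less RNA per cell cannot be told apart in any value below.

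Reads on genes ranged from 27281902 to 68069513 in H3.3Q5A rats and from 28511057 to 71104049 in H3.3 WT rats, and their means did not differ beyond the spread between rats (two-sided exact permutation test, p = 0.436). Deposited values come from counts by a variance-stabilizing transformation to a scale like log2, which compresses the differences of weakly expressed genes, and RPM below are reads per 1000000 reads on genes. Symbols and rn6 positions were at hand for 1997 tested genes only, taken from rows of a supplementary table that the study ordered by its comparison of saline H3.3 WT with saline empty rats. The H3.3 WT libraries of that comparison are the same as here, so counts over named genes are not independent of how those genes came to have a name, and no support is drawn from them. No member of the lists of neuron, dopamine neuron, GABA neuron, serotonin neuron or ependymal markers had a symbol, and neither the viral transcript nor the endogenous H3.3 genes were analysed here. The tissue label was therefore checked by glial genes only, with Mbp of oligodendrocytes, Aldoc of astrocytes and Cx3cr1 of microglia above 0 in every library compared.

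How many genes differed between saline H3.3Q5A and saline H3.3 WT rats depended on the fit. On the deposited values, at FDR under 0.05 and a log2 fold change (log2FC) beyond 0.2, 2 of the 20219 genes (0.00989%) were DEx, of which 1 was upregulated (0.00495%) and 1 downregulated (0.00495%) in H3.3Q5A rats. With 1, 2 or 3 residual factors in the model, 328, 918 or 1313 genes were DEx. This is in the manner of the RUVr step that the study used, with a number of factors not given. The factors come from the residuals of the same values, so they lower the residual spread by construction. The higher counts follow from this and are no support for more differences. Without such factors, the number of DEx genes was 153 when the library with conflicting labels was counted as H3.3Q5A, and 1 when it was counted as H3.3 WT. An unadjusted limma p under 0.05 was met by 2516 genes (12.4%), of which 1140 (5.64%) were higher and 1376 (6.81%) lower. The balance of these depended on the scaling: 45.3% were higher on the deposited values, 70.6% after median centring of each library, 57.3% after quantile normalization and 36.5% with voom on reads. The values of the groups did not overlap for 50 genes (0.247%), 29 higher (0.143%) and 21 lower (0.104%). The median log2FC over all genes was -0.007, and the 95% interval of the log2FC lay within 0.5 of 0 for 18253 genes (90.3%) and within 1 of 0 for 19904 genes (98.4%).

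**Figure D1:**
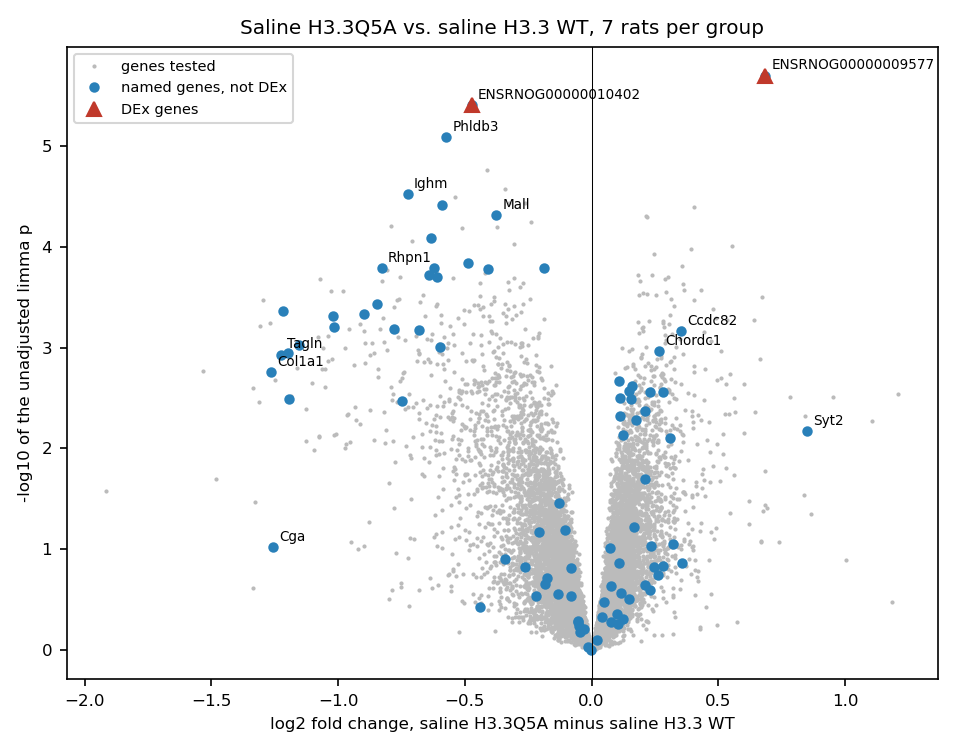
Each point is 1 of 20219 genes, with the log2 fold change of saline H3.3Q5A minus saline H3.3 WT on the x axis and -log10 of the unadjusted limma p on the y axis. Triangles mark the 2 DEx genes, both at an adjusted p of 0.0399, and blue points mark the other genes with values in the text, of which Phldb3 comes next at an adjusted p of 0.0557.

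The upregulated gene, ENSRNOG00000009577, has no symbol in the sources used here. Its deposited values ran from 9.01 over a median of 9.28 to 9.33 in H3.3Q5A rats and from 8.01 over 8.55 to 9.05 in H3.3 WT rats. All H3.3Q5A rats but rat 33 were above every H3.3 WT rat, and the highest H3.3 WT value belonged to rat 27. The log2FC was 0.69 (SE 0.124, limma adjusted p = 0.0399), which corresponds to 12.2 ± 1.1 against 7 ± 2.09 RPM (SD, n = 7 each). Saline empty rats had an intermediate mean of 8.8 ± 0.183 (SD, n = 7), so the value was 0.45 higher in H3.3Q5A than in empty rats (adjusted p = 0.0268) and -0.24 in H3.3 WT minus empty rats (adjusted p = 0.303).

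The downregulated gene, ENSRNOG00000010402, was weakly expressed, at 0.379 ± 0.137 RPM in H3.3Q5A and 1.04 ± 0.332 in H3.3 WT rats (SD, n = 7 each). Deposited values ran from 6.33 over a median of 6.51 to 6.72 in H3.3Q5A rats and from 6.57 over 7.06 to 7.17 in H3.3 WT rats. Rat 27 was the lowest of the H3.3 WT rats, below 2 of the H3.3Q5A rats, and 5 H3.3Q5A rats were below every H3.3 WT rat. The log2FC was -0.47 (SE 0.089, limma adjusted p = 0.0399) on the deposited scale and -1.40 with voom on the recovered reads, where the adjusted p was 0.0676. Both calls were lost without a filter on low values (adjusted p = 0.0538 for each) and in a fit of these 14 libraries alone (adjusted p = 0.102 for each), and at least 1 was lost in 13 of the 14 fits that left out a single rat.

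Among single rats left out, rat 27 of the H3.3 WT group changed the number of calls the most. Without it, 671 genes were DEx (3.34% of 20060 genes then tested), 170 upregulated (0.847%) and 501 downregulated (2.5%), both genes above among them. Leaving out any other of the 14 rats gave 0 or 1 DEx genes. Among genes with a symbol, 117 were then downregulated and 8 upregulated. No label sets rat 27 apart, so the count with all 7 H3.3 WT rats is the result and the count without it an alternative.

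**Figure D2:**
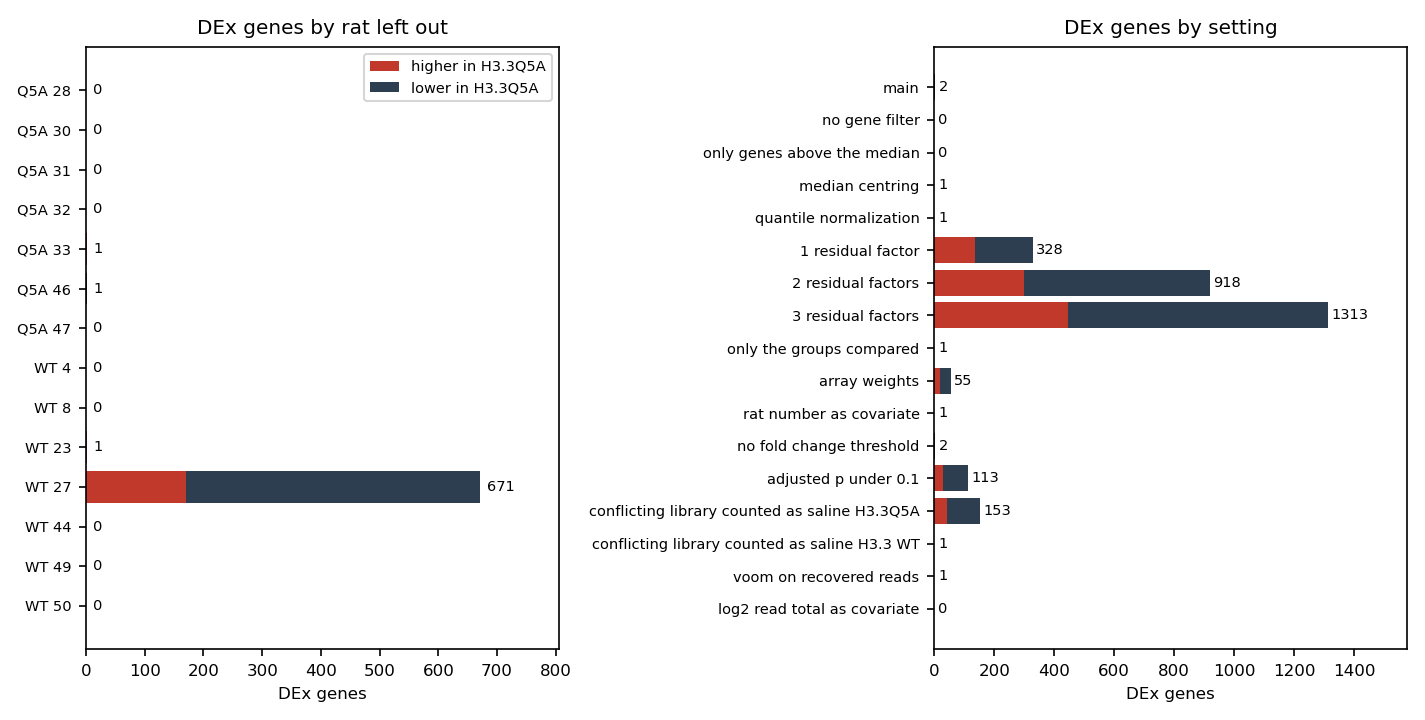
Bars give the number of DEx genes of saline H3.3Q5A vs. saline H3.3 WT (x axis), split into higher and lower in H3.3Q5A, with each of 14 rats left out in turn (left) and under each processing setting (right). Omitting H3.3 WT rat 27 gave 671 DEx genes against 0 or 1 for the other rats. With 1 to 3 residual factors there were 328 to 1313 against 2 in the main setting, and those factors lower the residual spread by construction.

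The genes with a symbol and the lowest p among those lower in H3.3Q5A rats missed the threshold. Phldb3, a pleckstrin-homology-like domain gene at chr1:81474552-81492631 of rn6 (plus strand), ran from 6.72 over a median of 7.17 to 7.39 in H3.3Q5A rats and from 7.40 over 7.76 to 7.91 in H3.3 WT rats. The groups did not overlap, with rat 27 lowest among H3.3 WT rats. Its log2FC was -0.57 (SE 0.113, adjusted p = 0.0557), or -0.62 without rat 27 (adjusted p = 0.00498). Mall, a MAL-family membrane proteolipid gene at chr3:120272582-120306551 (minus strand), also kept the groups apart, from 6.73 over 6.87 to 6.91 in H3.3Q5A and from 7.04 over 7.27 to 7.33 in H3.3 WT rats. The log2FC of Mall was -0.38 (SE 0.0829, adjusted p = 0.0729), and the same fit with voom on reads gave -1.13 for Phldb3 and -0.89 for Mall. Both are genes of few reads, with 0.81 ± 0.0929 RPM for Mall in H3.3Q5A rats against 1.53 ± 0.235 in H3.3 WT rats (SD, n = 7 each).

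Of the remaining 10 genes of this rule, Ighm, the heavy chain constant region of IgM that B cells make, ran from 6.77 over a median of 6.92 to 7.26 in H3.3Q5A and from 6.92 over 7.67 to 8.81 in H3.3 WT rats, with a log2FC of -0.72 (adjusted p = 0.0729), or -1.32 with voom on reads. The highest Ighm value was in H3.3 WT rat 49 and the lowest of that group in rat 27. Sema3b, a secreted semaphorin that guides axons, had a log2FC of -0.59 (adjusted p = 0.0729) and S100a11, a calcium-binding protein of proliferating and barrier cells, of -0.63 (adjusted p = 0.0883). Adjusted p was 0.0962 for Vstm4 (-0.49), Rhpn1 (-0.83), Fxyd1 (-0.62), the cation-chloride cotransporter Slc12a4 (-0.41), the matrix gene Adamtsl4 (-0.64), the interferon-induced Ifitm2 (-0.61) and the ribosomal protein gene Rps28 (-0.19). Without rat 27, where 2.5% of all genes and 117 of those with a symbol were downregulated, all 12 of these genes passed the threshold. Their adjusted p was then from 0.00442 to 0.00999. The 12 were chosen by their p in the same data, so their passing is no separate support.

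On the higher side, Ccdc82, a coiled-coil gene at chr8:11888590-11927919 (plus strand), ran from 11.24 over a median of 11.36 to 11.50 in H3.3Q5A rats and from 10.71 over 10.95 to 11.66 in H3.3 WT rats. The top value was H3.3 WT rat 27, while the other 6 H3.3 WT rats, from 10.71 to 10.99, lay below every H3.3Q5A rat. The log2FC was 0.35 (SE 0.0962, adjusted p = 0.102) with all rats and 0.46 (adjusted p = 0.00488) without rat 27. Chordc1, a co-chaperone that binds Hsp90, ran from 12.13 over 12.28 to 12.34 against 11.73 over 12.03 to 12.27, again with rat 27 at the top of the H3.3 WT range, and had a log2FC of 0.27 (adjusted p = 0.11). The other 10 genes named on this side had a log2FC of 0.11 for the endosomal sorting gene Stam, 0.16 for the coat protein gene Copg2, and 0.11, 0.16 and 0.21 for Vps39, Vps37a and Vps50, subunits of endosomal tethering and sorting complexes. The log2FC of the others is given in brackets for Rcbtb1 (0.15), the heparan sulfate enzyme Ndst3 (0.28), the lysosomal lipid transporter Abca5 (0.23), Narf (0.11) and the zinc finger gene Zfp24 (0.18). Adjusted p of these 10 genes lay between 0.129 and 0.162. Without rat 27, where 0.847% of all genes and 8 of those with a symbol were upregulated, Ndst3, Abca5 and Vps50 passed the threshold. They too were chosen by their p in the same data.

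**Figure D3:**
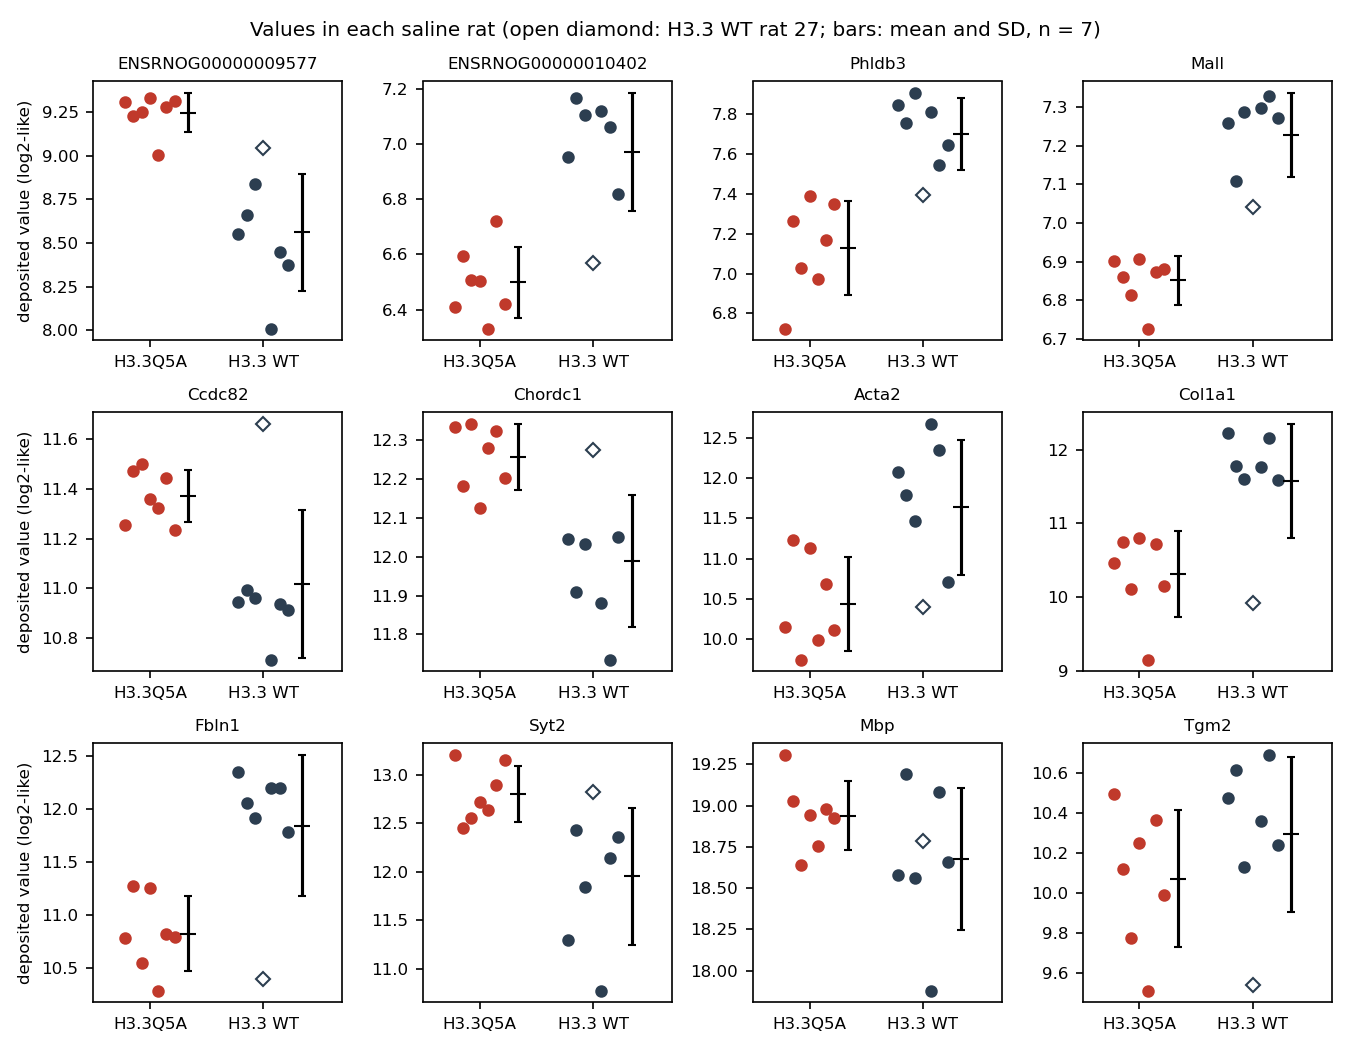
Deposited log2-like values (y axis) of 12 genes in each of 7 saline H3.3Q5A and 7 saline H3.3 WT rats, with mean and SD beside the points and H3.3 WT rat 27 drawn as an open diamond. Rat 27 lies within or next to the H3.3Q5A range for Acta2, Col1a1, Fbln1 and Ccdc82, where it stands at 10.40, 9.92, 10.39 and 11.66.

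Genes of the extracellular matrix and of the contractile cytoskeleton were among the listed genes with the largest fold changes. Of 25 matrix genes, 5 had a symbol, all were lower in H3.3Q5A rats, and 3 had an unadjusted p under 0.05. Of all genes tested, 6.81% were lower at that p, and of the 1997 genes with a symbol 183 were lower and 76 higher. The median log2FC of the 5 was -0.75, beside -0.007 over all genes tested, and none was DEx. Col1a1, the chain of type I collagen at chr10:82745800-82762789 (plus strand), ran from 9.15 over 10.47 to 10.81 in H3.3Q5A and from 9.92 over 11.76 to 12.22 in H3.3 WT rats. Besides rat 27 at 9.92, the H3.3 WT rats began at 11.59, above every H3.3Q5A rat. The log2FC was -1.27 (SE 0.378, adjusted p = 0.124), which corresponds to 30 ± 10.7 against 79.2 ± 30.4 RPM (SD, n = 7 each). Fbln1, the matrix glycoprotein fibulin 1, had a log2FC of -1.02 (adjusted p = 0.0989), and Loxl1, an enzyme that crosslinks elastin, of -0.75 (adjusted p = 0.145). Fibronectin (Fn1) had a log2FC of -0.26 (adjusted p = 0.58). Without rat 27, where 2.5% of all genes and 117 of those with a symbol were downregulated, 3 of the 5 were DEx, Col1a1 at -1.54 (adjusted p = 0.0148), Fbln1 at -1.26 (adjusted p = 0.007) and Loxl1 at -0.90 (adjusted p = 0.027).

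A list of 18 contractile and actin-binding genes was written after values had been seen, so its counts are a description only. Of the 13 with a symbol, 11 were lower in H3.3Q5A rats and 10 had an unadjusted p under 0.05, with a median log2FC of -0.85, beside the 6.81% of all genes and 183 of 1997 with a symbol that were lower at that p. Acta2, the actin of smooth muscle, ran from 9.75 over a median of 10.15 to 11.24 in H3.3Q5A and from 10.40 over 11.79 to 12.67 in H3.3 WT rats. The H3.3 WT rats below 11 were rats 27 and 50, and all others stood above every H3.3Q5A rat. The log2FC of Acta2 was -1.20 (SE 0.343, adjusted p = 0.111), and the log2FC on this scale was -1.22 for Tagln, -1.22 for Actg2, -1.15 for calponin (Cnn1) and -1.01 for desmin (Des). With voom on reads it was -2.24 for Actg2 and -1.77 for Cnn1. Myl9 (-0.90), the phospholamban gene Pln (-0.85), tropomyosin 2 (Tpm2, -0.78), filamin A (Flna, -0.68) and the myosin light chain kinase Mylk (-0.60) were closer to 0. The other members were vinculin (Vcl, -0.05), Csrp1 (0.10) and Ppp1r14a (0.11). Without rat 27 the 10 genes other than these 3 were DEx, where 2.5% of all genes were downregulated, with adjusted p from 0.00862 to 0.0207. The direction of the matrix and contractile lists was the same under median centring, quantile normalization and voom, with medians of -0.711 to -0.893 and -0.791 to -0.956.

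RefSeq promoters (GRCr8) were searched for the CArG box, the element bound by serum response factor at genes of smooth muscle. The search covered both strands of the 250 bases before each start, with at most 1 base off the consensus. Whether the genes of the contractile list vary together was not tested. A promoter was at hand for 11 of the 13 genes of that list, without Tagln and Myl9. The 11 include Vcl, Csrp1 and Ppp1r14a, whose log2FC was -0.05, 0.10 and 0.11. Of the 11, 1 gene, Acta2, held such matches, beside 18.7% of all 33469 promoters. An exact match was found in 0 of the 11, beside 1.5% of all promoters. Acta2 is shown as the gene with 2 matches, starting 134 and 84 bases before its start and given in capitals, and Actg2 and Des as related genes of the list with no match in this window, which says only that these letters were not found there. They stand at chr1:241172504-241172753 (Acta2, minus strand), chr4:117594040-117594289 (Actg2, minus strand) and chr9:84299376-84299625 (Des, plus strand) of GRCr8.
Acta2: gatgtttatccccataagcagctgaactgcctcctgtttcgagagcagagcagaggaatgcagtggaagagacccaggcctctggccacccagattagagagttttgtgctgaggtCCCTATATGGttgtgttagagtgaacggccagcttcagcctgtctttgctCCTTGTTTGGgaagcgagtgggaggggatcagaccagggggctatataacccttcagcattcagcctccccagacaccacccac
Actg2: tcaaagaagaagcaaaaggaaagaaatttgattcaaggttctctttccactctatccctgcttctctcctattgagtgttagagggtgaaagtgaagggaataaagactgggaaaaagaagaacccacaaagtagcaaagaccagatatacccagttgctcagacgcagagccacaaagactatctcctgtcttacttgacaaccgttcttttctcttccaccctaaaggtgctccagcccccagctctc
Des: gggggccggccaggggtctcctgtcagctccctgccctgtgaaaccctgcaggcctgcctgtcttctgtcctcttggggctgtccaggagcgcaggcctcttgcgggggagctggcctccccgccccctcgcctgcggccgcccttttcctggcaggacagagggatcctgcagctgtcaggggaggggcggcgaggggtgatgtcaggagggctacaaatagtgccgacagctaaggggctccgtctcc

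Marker genes of meninges, vessels and pituitary had a negative log2FC too, none of them DEx. Of 8 meningeal fibroblast markers, Col1a1 and Ptgds had a symbol. Ptgds, the prostaglandin D synthase of the meninges and of some oligodendrocytes, ran from 14.28 over 15.15 to 16.04 in H3.3Q5A and from 14.49 over 16.71 to 17.14 in H3.3 WT rats, with a log2FC of -1.19 (adjusted p = 0.142). The sum of Col1a1 and Ptgds ranged from 480 to 1666 RPM in H3.3Q5A rats and from 579 to 3526 in H3.3 WT rats. In empty rats it ranged from 1024 to 1978, and the lowest H3.3 WT sum was in rat 27. Ptgds made up most of this sum, with a mean of 939 RPM in H3.3Q5A and 2313 in H3.3 WT rats, against 30 and 79.2 for Col1a1. Of 8 endothelial and mural markers, 3 had a symbol, Acta2, Pdgfrb and Kdr. Their sum ranged from 73.3 to 119.8 in H3.3Q5A and from 92.1 to 227.8 in H3.3 WT rats, and rat 27 was again lowest. Acta2, also on the contractile list, had a mean of 33.3 RPM in H3.3Q5A and 85.9 in H3.3 WT rats. The corresponding means were 42.5 and 50.2 for Pdgfrb and 19.5 and 21.8 for Kdr. Pdgfrb, the receptor of pericytes, had a log2FC of -0.21 (adjusted p = 0.448) and Kdr, the VEGF receptor of endothelial cells, of -0.13 (adjusted p = 0.704). The pituitary genes Cga and Tshb, 2 of 6 on that list, summed to between 0.38 and 18.2 RPM in H3.3Q5A, between 1.0 and 34.6 in H3.3 WT and between 0.42 and 234.6 in empty rats, with a log2FC of -1.26 for Cga (adjusted p = 0.507) and -0.44 for Tshb (adjusted p = 0.763). No marker of these lists was at 0 in a whole group, and the part of such tissue in the differences above was not tested.

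Myelin genes pointed the other way by small amounts. Of 20 genes of the myelin membrane and its lipids, 15 had a symbol, all had a positive log2FC (0.04 to 0.32, median 0.23), and 0 were DEx or had an unadjusted p under 0.05. Mbp, the myelin basic protein, ran from 18.64 over 18.94 to 19.30 in H3.3Q5A and from 17.88 over 18.66 to 19.19 in H3.3 WT rats, with a log2FC of 0.26 (95% interval -0.13 to 0.65, adjusted p = 0.615). Mobp had a log2FC of 0.32 (adjusted p = 0.493) and Ugt8, which makes galactosylceramide, of 0.28 (adjusted p = 0.578). After quantile normalization, 13 of the 15 stayed positive and the median was 0.141. The sum of the 6 oligodendrocyte markers with a symbol ranged from 19800 to 28920 RPM in H3.3Q5A and from 11760 to 28390 in H3.3 WT rats, whose lowest value was in rat 44. Among precursor genes, Olig2 had a log2FC of 0.23 and Olig1 of 0.15, while Cspg4 (-0.05) and Gpr17 (-0.01) were near 0 and changed sign between settings.

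**Figure D4:**
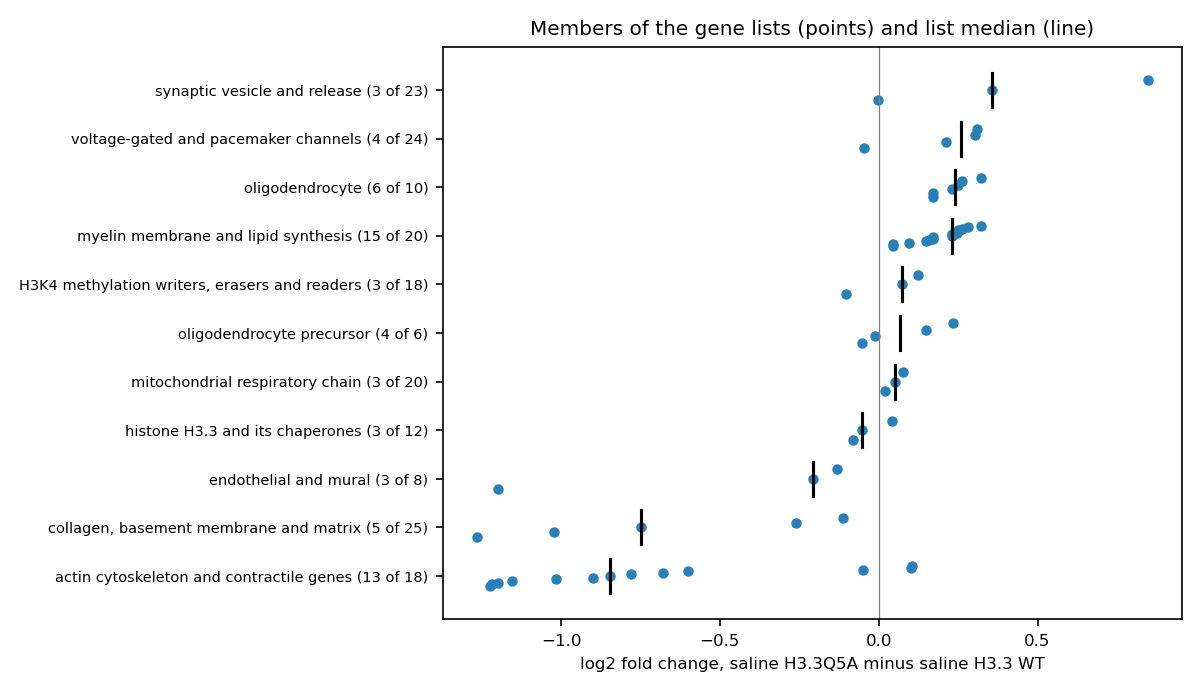
Points give the log2 fold change (saline H3.3Q5A minus saline H3.3 WT, x axis) of each list member with a symbol, lines the list median, and the y axis the lists with at least 3 such members. The contractile list, written after values were seen, has a median of -0.85, the matrix list of -0.75 and the myelin list of 0.23.

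Genes of neuronal transmission were few among those with a symbol. Syt2, the calcium sensor of fast transmitter release, ran from 12.45 over 12.71 to 13.20 in H3.3Q5A and from 10.78 over 12.14 to 12.82 in H3.3 WT rats, and its log2FC of 0.85 (SE 0.297, adjusted p = 0.177) was the largest of the 3 synaptic genes with a symbol, out of 23 listed. Rat 27 had the highest H3.3 WT value of Syt2, and 3 H3.3Q5A rats lay above it. Cplx1, the complexin that clamps the release machinery, had a log2FC of 0.36 (adjusted p = 0.566), and the vesicle protein gene Syn1 was at 0.00 with a sign that depended on the setting. Of 24 channel and pump genes, 4 had a symbol. The plasma membrane calcium pump Atp2b2 ran from 14.54 over 14.69 to 14.77 against 14.03 over 14.42 to 14.60, with a log2FC of 0.31 (adjusted p = 0.192), and 5 of 7 H3.3Q5A rats stood above every H3.3 WT rat. The pacemaker channel Hcn2 was at 0.21 (adjusted p = 0.66) and Scn3a at -0.05. For the glycine transporter Slc6a9, the log2FC was 0.11, for the NMDA receptor subunit Grin2c -0.18 and for the vesicular glutamate transporter Slc17a8 0.12, none of them DEx.

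No gene with a symbol on the lists around the histone mark was DEx. The DEx genes have no symbol here, so they could not be placed on or off these lists. A symbol was at hand for 1 of 5 transglutaminases and 3 of 18 H3K4 genes. Tgm2, the enzyme that writes H3Q5dop, ran from 9.51 over 10.12 to 10.50 in H3.3Q5A and from 9.54 over 10.36 to 10.69 in H3.3 WT rats, with a log2FC of -0.22 (95% interval -0.64 to 0.19, adjusted p = 0.713), so the ranges overlapped almost in full. Among H3.3 chaperones, 3 of 12 had a symbol. Nasp, which holds soluble H3 and H4, had a log2FC of -0.08 (95% interval -0.23 to 0.07), Dek of 0.04 (-0.07 to 0.15) and Cabin1, a subunit of the HIRA complex, of -0.05 (-0.21 to 0.10). Of the H3K4 genes, the demethylase Kdm5a had a log2FC of 0.12 (95% interval 0.03 to 0.21, adjusted p = 0.185), its relative Kdm5b of -0.10 (adjusted p = 0.442), and Rbbp5, a core subunit of the methyltransferase complexes, of 0.07 (adjusted p = 0.512).

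Other lists had 1 to 3 members with a symbol, and 0 of these members were DEx. The heat shock gene Hspb1 had a log2FC of -0.34 (adjusted p = 0.547) and the endoplasmic reticulum gene Sdf2l1 of 0.21 (adjusted p = 0.28). For inflammation, Relb was at -0.13 (adjusted p = 0.344) and Nfkbia, the inhibitor of NF-kB, at 0.17 (adjusted p = 0.431). The immediate early gene Ier2 was at -0.18, the respiratory chain genes Cox5a, Ndufv1 and Cox6a1 at 0.08, 0.05 and 0.02, and the cholesterol synthesis gene Dhcr7 at -0.03. Aldoc of astrocytes was at 0.11, Cx3cr1 of microglia at 0.08 and the ribosomal gene Rpl13 at -0.08. No gene of the dopamine, opioid, neurofilament or interferon lists had a symbol.

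Whether the vectors differed in the same way after heroin was tested as a difference of differences, the H3.3Q5A minus H3.3 WT value after heroin minus that after saline. It passed the threshold for 1855 genes (9.17%), 1097 (5.43%) with a positive and 758 (3.75%) with a negative difference, and this balance turned after median centring (846 and 2006) and among genes above the median level (547 and 728), while voom gave 1393 and 567. Of 238 genes with a symbol that passed, 46 are among the 85 with values here. Genes named for a low p after saline enter this test with that value, so their number is no separate support. Col1a1 was at -1.27 after saline and at 1.55 after heroin (adjusted p = 0.0146), a difference of 2.82 (SE 0.527, adjusted p = 0.000613). In heroin rats its mean was 9.67 ± 0.612 with H3.3 WT (SD, n = 7) and 11.2 ± 1.05 with H3.3Q5A (SD, n = 8), whereas saline rats had 11.6 ± 0.77 with H3.3 WT and 10.3 ± 0.585 with H3.3Q5A (SD, n = 7 each). Acta2 was at -1.20 after saline and 1.06 after heroin, a difference of 2.26 (adjusted p = 0.00177), and 10 of the 13 contractile and 4 of the 5 matrix genes passed. Of 8 meningeal markers, 2 had a symbol, Ptgds and Col1a1, which is already counted as a matrix gene. Both passed, with a median of -1.23 after saline and 1.61 after heroin. Ptgds alone was at -1.19 after saline and 1.67 after heroin. Myelin genes had the opposite order, a median of 0.23 after saline and -0.55 after heroin, and 9 of 15 passed. Syt2 was at 0.85 and -0.92, a difference of -1.77 (SE 0.414, adjusted p = 0.00463). The number of passing genes ranged from 1281 without heroin H3.3 WT rat 11 to 2586 without heroin H3.3Q5A rat 21.

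**Figure D5:**
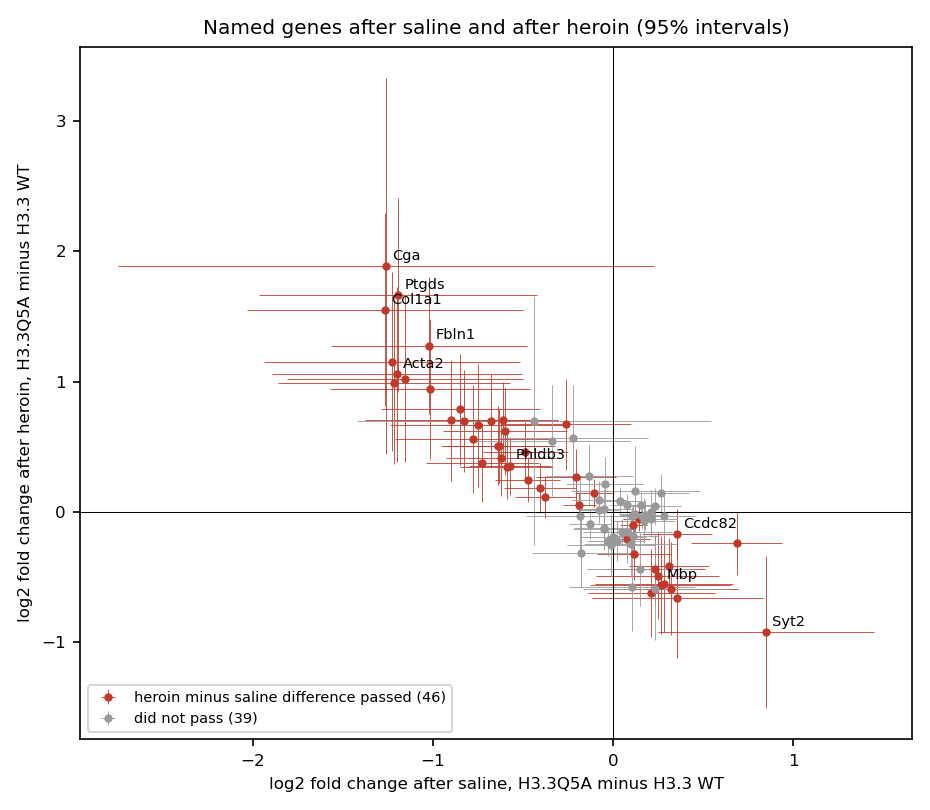
Log2 fold changes of H3.3Q5A minus H3.3 WT for 85 genes after saline (x axis) and after heroin (y axis) with 95% intervals, and red for the 46 genes whose heroin minus saline difference passed. Genes low on the x axis, such as Col1a1 at -1.27, lie high on the y axis (1.55), and Syt2 lies at 0.85 and -0.92. Many of these genes were chosen by their saline value.

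Against saline empty rats, the H3.3Q5A libraries gave 1201 DEx genes (5.94%), 776 higher (3.84%) and 425 lower (2.1%), and the H3.3 WT libraries 0. In the latter comparison the lowest adjusted p was 0.177 in limma, and 3659 genes (18.1%) had an unadjusted p under 0.05. These comparisons share the empty rats with each other and their other libraries with the comparison of H3.3Q5A and H3.3 WT, and a call against empty in only 1 of them is no test of a difference between the vectors. Atp2b2 was at 0.58 in H3.3Q5A minus empty (adjusted p = 0.0114) and at 0.27 in H3.3 WT minus empty, Mbp at 0.71 (adjusted p = 0.0249) and 0.44, and Syt2 at 1.36 (adjusted p = 0.0115) and 0.51. For Col1a1 the corresponding values were -0.38 (adjusted p = 0.552) and 0.88, and for Acta2 -0.29 (adjusted p = 0.622) and 0.90, so that empty rats lay between the vectors for these genes.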

How the data were processed

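Libraries were polyA-selected, sequenced and, per the submitters' notes and the study's methods, aligned by the authors to rn6 with HISAT2 2.1.0 and counted with featureCounts 2.0.1 on Ensembl 90 genes, without multi-mapped reads. The deposited values are counts that the authors normalized and variance-stabilized with DESeq2 2.11.40.6 to a log2-like scale. RUVr, used in the study, had a number of factors not given in the sources used here. The kit does not mark strand, so overlapping genes cannot be told apart. Undoing the transformation gave whole reads for 100% of values under 1000 reads (tolerance 0.05), where wholeness was checked. Rat numbers are those of the titles. Nothing states which rats shared a sequencing run.

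Values of 44 libraries in 6 groups were fitted with limma 3.58.1 in R 4.3.3 with an intensity trend (38 residual degrees of freedom), restricted to genes exceeding the table's lowest value in 7 or more of the 14 libraries compared. Genes were called DEx when p, adjusted after Benjamini and Hochberg, was below 0.05 and the log2 fold change passed 0.2 in either direction. The recovered reads were modelled with voom only, as an alternative. RPM are recovered reads per 1000000 reads on genes. Libraries of a group were checked for duplication in 42 pairs (lowest chi-square per gene 9.64). The scripts were tested on simulated data. Named genes are the 12 with a symbol and lowest p in each direction, up to 4 members with lowest p of each of 19 gene lists and 13 marker lists (chaperones and transglutaminases whole), the contractile list, and 2 identifiers. Libraries, lists and genes were chosen with earlier results of these data known. A few genes met the rule and are not reported here. Columns of the study's own comparisons were not used. Alternatives were other filters, scalings, residual factors, weights, covariates, thresholds, both readings of the conflicting library, voom, and leaving out each rat.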

Additional observations from a re-analysis of the deposited data

Results flagged for a closer look

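Of 172 groups of 7 values tested for a single rat far from the rest (Dixon's test), 16 had one, where chance gives about 1 in 20, or 8.6. Of these, 5 were H3.3 WT rat 27: Ccdc82 at 11.66 (others 10.71 to 10.99), Col1a1 at 9.92 (11.59 to 12.22), Fbln1 at 10.39 (11.78 to 12.35), Rhpn1 at 9.47 (10.40 to 10.97) and Slc12a4 at 10.76 (11.16 to 11.44). H3.3 WT rat 49 was high for Kdr at 10.43 (others 9.74 to 9.94) and Pdgfrb at 11.56 (10.85 to 11.08). H3.3Q5A rat 31 was high for the pituitary genes Cga at 9.24 (5.95 to 7.13) and Tshb at 8.41 (6.48 to 6.90) and for Vps37a at 10.20 (9.96 to 10.04), and low for Narf at 11.70 (11.74 to 11.78). H3.3Q5A rat 33 was low for ENSRNOG00000009577 at 9.01 (9.23 to 9.33) and Col1a1 at 9.15 (10.12 to 10.81). H3.3Q5A rat 28 was low for Abca5 at 11.05 (11.18 to 11.27) and high for Grin2c at 12.22 (11.54 to 11.83), and H3.3Q5A rat 32 was high for Adamtsl4 at 8.95 (8.49 to 8.67).

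The H3.3Q5A minus H3.3 WT value differed between heroin and saline rats for 1855 genes by a limma test of the difference itself, and for 46 of the 85 genes with values, 31 positive and 15 negative. All values that follow are heroin minus saline differences on the log2 scale. Contractile genes had 2.38 for Tagln, 2.26 for Acta2, 2.21 for Actg2, 2.17 for Cnn1, 1.96 for Des, 1.63 for Pln, 1.60 for Myl9, 1.38 for Flna, 1.34 for Tpm2 and 1.22 for Mylk. Matrix, meningeal, mural and pituitary genes had 2.86 for Ptgds, 2.82 for Col1a1, 2.30 for Fbln1, 1.41 for Loxl1, 0.93 for Fn1, 0.48 for Pdgfrb and 3.14 for Cga. Genes named for their p after saline had 1.52 for Rhpn1, 1.32 for Ifitm2, 1.15 for Adamtsl4, 1.14 for S100a11, 1.10 for Ighm, 1.04 for Fxyd1, 0.95 for Vstm4, 0.94 for Sema3b, 0.93 for Phldb3, 0.59 for Slc12a4, 0.49 for Mall and 0.24 for Rps28. The identifiers without a symbol had 0.72 for ENSRNOG00000010402 and -0.92 for ENSRNOG00000009577. On the higher side the differences were -0.52 for Ccdc82, -0.21 for Narf and -0.20 for Rcbtb1. Myelin and precursor genes had -0.91 for Mobp, -0.83 for Ugt8, -0.82 for Mbp, -0.74 for Gal3st1 and -0.67 for Olig2. Neuronal and other genes had -1.77 for Syt2, -1.02 for Cplx1, -0.83 for Hcn2, -0.72 for Atp2b2, -0.44 for Slc6a9, -0.28 for Cox5a and 0.25 for Kdm5b. Sums of meningeal and mural markers were taken in saline rats only. Of these markers, Col1a1 is also on the matrix list and Acta2 on the contractile list, and Kdr did not pass (0.41, limma adjusted p = 0.113). The part of such tissue in these differences was not tested.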

How the results depend on the processing

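The count of 2 DEx genes after saline became 0 without a gene filter, among genes above the median and with the log2 read total as covariate. It became 1 under median centring, quantile normalization, rat number as covariate, voom, and with the conflicting library counted as H3.3 WT. It was also 1 in a fit of the groups compared, where the gene, lower in H3.3Q5A rats, is neither of the 2. It rose to 55 with array weights, 113 at an adjusted p under 0.1, 153 with that library counted as H3.3Q5A, and 328, 918 and 1313 with 1, 2 and 3 residual factors. Those factors are orthogonal to the groups by construction, so they lower the residual spread and leave the fold changes as they are. The higher counts with them are therefore no support for more differences. The cause of the other shifts was not tested. Leaving out single rats gave 0 to 671, the latter without H3.3 WT rat 27. The count of 1855 for the heroin minus saline difference became 2852 under median centring and 2936, 3370 and 3808 with 1, 2 and 3 residual factors, and single rats left out gave 1281 to 2586. It was 1267 with the conflicting library as H3.3 WT, 1275 among genes above the median (547 positive, 728 negative), 1498 with the read total and 1580 without a filter, and between 1696 and 2716 in the others. No paired analysis was possible because the rat numbers of the saline H3.3Q5A and H3.3 WT groups share no value.

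Of 85 genes, 79 never turned their sign, Mbp among them with a log2FC of 0 after quantile normalization, and 22 of 2533 gene values turned, all in 6 genes near 0. Under median centring they were 0.0099 for Dhcr7, 0.026 for Gpr17 and 0.036 for Syn1, and under quantile normalization -0.0084 for Cox6a1. With the conflicting library as H3.3 WT they were 0.039 for Gpr17 and 0.024 for Syn1, and with the read total 0.000115 for Gpr17. Without single rats, the log2FC ranges were -0.070 to 0.052 for Gpr17, -0.062 to 0.041 for Syn1, -0.084 to 0.0020 for Cspg4, -0.0093 to 0.069 for Cox6a1 and -0.088 to 0.018 for Scn3a. The deposited scale compresses the differences of genes of few reads. Over all genes tested, the median width of the 95% interval was 0.319. What limited the number of calls was not tested.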

Other observations

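The saline library whose title names H3.3Q5A and whose treatment names H3.3 WT was in no comparison. Its deposited values of 10.24 for Acta2, 10.56 for Tagln, 9.43 for Col1a1, 10.35 for Fbln1, 7.14 for Phldb3, 12.31 for Chordc1 and 13.14 for Syt2 were outside the range of the H3.3 WT rats and within that of the H3.3Q5A rats. For several genes it was outside the range of both groups. Among others, it was below every rat of both at 6.69 for Mall, 9.33 for Rhpn1, 8.29 for Adamtsl4 and 8.52 for Loxl1. It was above every rat of both at 15.03 for Atp2b2, 11.80 for Narf and 10.13 for Nasp. It was within both ranges at 14.84 for Ptgds, 11.44 for Ccdc82 and 18.70 for Mbp. For other genes the library was within the H3.3 WT range and outside the H3.3Q5A range, such as 10.30 for Tpm2, 12.21 for Stam and 9.72 for Gal3st1. The same held at 14.78 for Mag, 13.19 for Hcn2, 13.74 for Slc6a9 and 13.45 for Olig1. Which group the library belongs to was not tested. For the DEx genes the library stood at 8.72 for ENSRNOG00000009577, below every H3.3Q5A rat and within the H3.3 WT range. At 6.59 for ENSRNOG00000010402 it was within the range of both groups.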
